A study of Mus musculus with 13 samples.

Results

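The genes described are 9 genes of TGF-beta signalling in mouse glomeruli: the ligands Tgfb1, Tgfb2 and Tgfb3, the receptors Tgfbr1, Tgfbr2 and Tgfbr3, and the feedback genes Smad6, Smad7 and Bambi. They were taken by name from a table of 35967 gene symbols, and all 9 had a row. Glomeruli came from wildtype Balb/c mice, male as the methods give it for this model, each injected intraperitoneally with 2.0 mg of rabbit IgG, and were isolated with magnetic beads perfused into the kidney. Control mice received preimmune IgG (n = 5), and mice with experimental membranous nephropathy (MN) received anti-THSD7A IgG, which binds THSD7A on podocytes, and were killed at day 1 (n = 4) or day 5 (n = 4). Control mice of both days form 1 group, with the day of death of single animals not given in the sources used here, so a difference from control is not matched for time. The antibody was transferred from another species and acted on a wildtype genome, and no gene of the pathway was targeted.

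TGF-beta ligands are secreted as latent dimers held in the extracellular matrix. Once released, a ligand brings together the type II receptor Tgfbr2 and the type I receptor Tgfbr1, which phosphorylate Smad2 and Smad3, and these enter the nucleus with Smad4. The pathway is known for matrix production by mesangial cells and for effects on podocytes and endothelium in the glomerulus. Its own targets include inhibitors, so that transcription of Smad7, Smad6 and Bambi limits the signal.

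None of the 9 genes was called at either day, where a call needed an adjusted p-value under 0.05 (limma with Benjamini-Hochberg adjustment over all genes tested) and an absolute log2 fold change above 0.5. Over all tested genes 0.0908% were called at day 1 and 3.21% at day 5, and at an unadjusted p under 0.05 (limma) 0 of the 9 genes passed at day 1 and 3 at day 5, beside 12.6% and 20.1% of all tested genes. At day 5 the 3 ligands lay above control by 0.29 to 0.37 on the log2 scale (Tgfb2 by 0.10 to 0.52 with 1 library left out), Tgfbr3 lay below it by 0.16, and the inhibitors were split, with Smad7 above and Smad6 and Bambi below. The ligand Tgfb3 had the smallest adjusted p-value, 0.0737 (limma), and all 4 day 5 libraries exceeded all 5 controls, where 10.7% of all tested genes did not overlap in either direction. At day 1 Tgfbr3 alone of the 9 separated the groups, with 4 of 4 libraries below every control, where 3.5% of all tested genes did not overlap.

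Levels are in TPM, a unit that scales transcript abundance by transcript length and by library total. They sum to between 989773 and 996064 in each library. The read depth behind them is unknown. Across the 13 libraries the size factors used for the tests lay between 0.954 and 1.04. Of the 14322 genes tested, limma called 13 at day 1, 460 at day 5 and 259 between the days. The tissue label was checked against marker lists: 10 podocyte markers summed to 7780 to 10500 TPM and 8 markers of glomerular endothelium to 5370 to 7000 TPM. The 11 tubule markers summed to 565 to 1350 TPM in control, 1050 to 1660 at day 1 and 773 to 945 at day 5, and 9 leukocyte markers, of which Adgre1, Cd3e and Cd79a were too low to be tested, to 26.1 to 58.5 TPM in all groups. Control replicate 2 stood apart with the lowest tubule sum (565 TPM), the lowest podocyte sum (7780 TPM) and the highest endothelial sum (7000 TPM). Control replicate 5 had the highest tubule sum of its group (1350 TPM) and the lowest endothelial sum (5370 TPM). In bulk samples fewer cells of a type and less RNA per cell cannot be told apart.

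The feedback gene Smad6 had the highest control level of the 9, 230.1 TPM ± 48.8 (SD, n = 5), above 95.3% of tested genes. It was followed by Tgfbr2 (174 TPM ± 18.4), Tgfb1 (145 ± 27.6), Tgfbr3 (75.6 ± 3.67) and Smad7 (61.6 ± 7.03). Bambi (20.7 TPM ± 2.54), Tgfbr1 (15.2 ± 1.98), Tgfb2 (10.02 ± 3.52) and Tgfb3 (7.93 ± 0.916) were the lowest, and Tgfb3 exceeded 28.3% of tested genes. The order falls into steps. The control ranges of Smad6 and Tgfbr2, of Tgfb1 and Tgfbr3, and of Smad7 and Bambi did not overlap, whereas those of the other 5 neighbouring pairs did. For Smad6 and Tgfbr2 the gap was narrow, with the lowest Smad6 control at 196.7 TPM and the highest Tgfbr2 control at 194.8 TPM. Over all 13 libraries Smad6 exceeded Tgfbr2 in 11, and Tgfb2 exceeded Tgfb3 in 9.

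The promoter windows of 2 members are shown because the feedback arm rests on SMAD binding to DNA. SMAD3 and SMAD4 recognise a short box, AGAC (GTCT on the other strand), and the palindrome GTCTAGAC joins 2 such boxes, one on each strand. The windows run from 250 bases before the annotated RefSeq transcript start to 20 bases after it (build GRCm38.p6). Windows were searched for 5 of the 9 members (Tgfb1, Tgfb2, Tgfbr1, Tgfbr2 and Smad6), and nothing is said here of the windows of the others. Capitals mark the box on either strand. The Smad6 window, at chr9:64022040-64022309 on the minus strand, and the Tgfb1 window, at chr7:25686752-25687021 on the plus strand, read 5′ to 3′:
Smad6: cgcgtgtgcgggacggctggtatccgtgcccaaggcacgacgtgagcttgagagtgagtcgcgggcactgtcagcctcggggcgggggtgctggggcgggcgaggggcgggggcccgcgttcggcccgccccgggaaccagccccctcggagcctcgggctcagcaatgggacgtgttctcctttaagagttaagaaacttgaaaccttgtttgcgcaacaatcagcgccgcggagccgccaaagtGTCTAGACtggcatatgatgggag
Tgfb1: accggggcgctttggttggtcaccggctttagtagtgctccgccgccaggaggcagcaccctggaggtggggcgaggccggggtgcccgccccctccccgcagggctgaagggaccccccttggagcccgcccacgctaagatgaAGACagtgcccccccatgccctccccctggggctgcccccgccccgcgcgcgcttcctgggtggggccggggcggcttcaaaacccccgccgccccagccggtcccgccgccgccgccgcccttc
The 2 boxes of Smad6 abut and form the palindrome, which covers the last 4 bases before the start and the first 4 bases from it. The same palindrome occurs in 60 of 32851 mouse windows of this length (0.183%). No other member window searched held it, and the feedback genes Smad7 and Bambi were not searched. Tgfb1 holds 1 box, which begins 105 bases before the start. A single box is common, in 85.2% of all windows, and 5 of the 6 member windows searched held at least one. A match is a description of the letters, and binding was not measured.

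**Figure D1:**
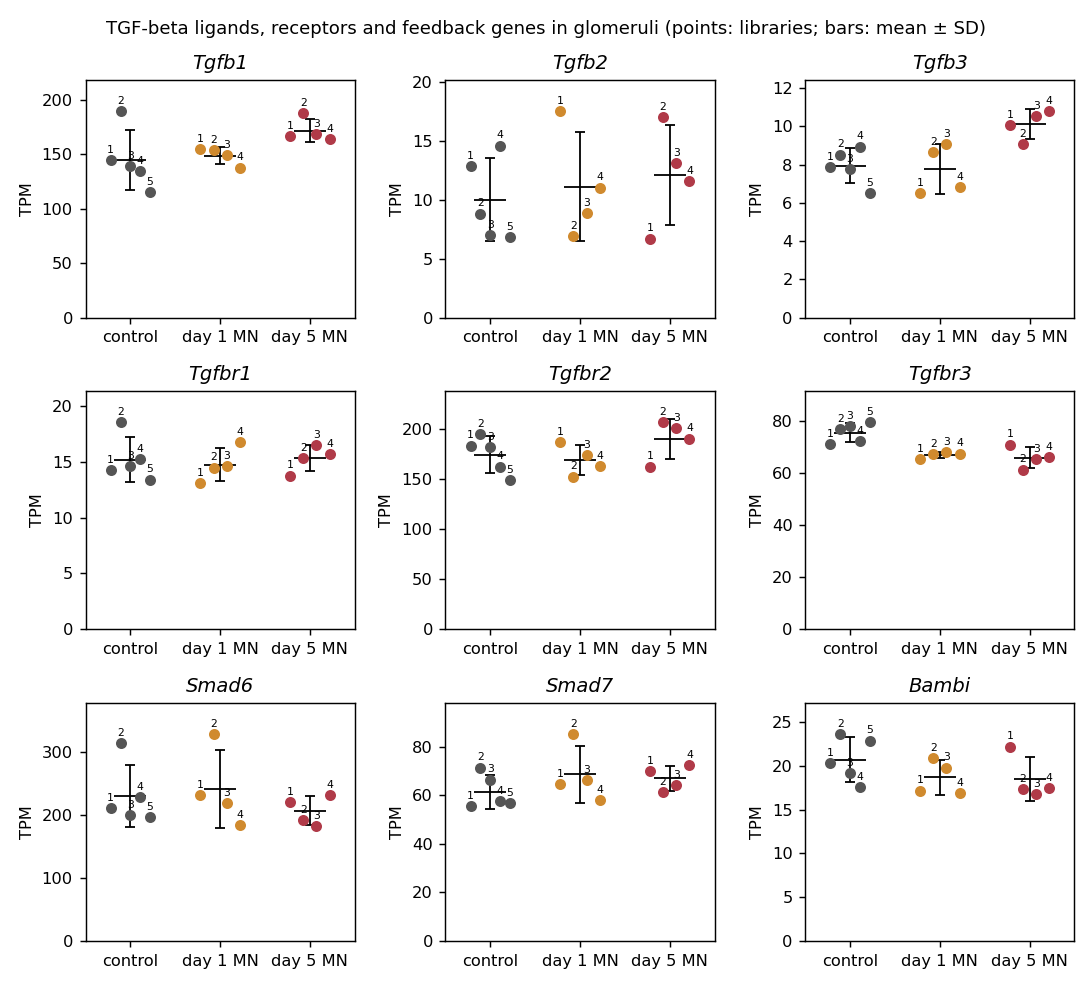
TPM of each of the 9 genes (y axis, from 0, a separate scale per gene) in control, day 1 MN and day 5 MN glomeruli. Points are libraries, numbered by replicate, and bars are the mean ± SD of 5, 4 and 4 libraries. The 4 day 5 libraries of Tgfb3 (9.07 to 10.8 TPM) lie above the control range (6.53 to 8.94 TPM), and the control library with the highest Tgfb1 and Smad6 is replicate 2.

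Among the ligands, Tgfb1, the isoform most studied in kidney fibrosis (GRCm39 chr7:25386390-25404506, plus strand), was by far the most abundant. It made up 85.1 to 91.6% of the summed ligand TPM in control, 86.5 to 90.8% at day 1 and 87.7 to 90.9% at day 5. In control replicates 1 to 5 Tgfb1 stood at 144, 190.1, 139, 135 and 115 TPM. The day 1 libraries held 155, 154, 150 and 138 TPM and the day 5 libraries 167, 188, 169 and 164 TPM. In TPM control replicate 2 exceeded all 8 MN libraries, and the other 4 controls lay below all 4 day 5 libraries. On the scaled log2 level used for the test day 5 replicate 2 was above control replicate 2 (7.595 against 7.518). The mean was 145 TPM ± 27.6 (SD, n = 5) in control and 172 TPM ± 10.7 (SD, n = 4) at day 5, a log2 fold change of 0.30 (SE 0.10, 95% interval 0.08 to 0.52). This difference did not pass the test (unadjusted p = 0.0123, adjusted p = 0.115, limma with Benjamini-Hochberg adjustment). Without control replicate 2 the log2 fold change was 0.39 with an adjusted p of 0.00737 (limma), still under the fold needed for a call. With the tubule marker score as a covariate it was 0.31 with an adjusted p of 0.0137 (limma). Day 5 also lay above day 1 without overlap between libraries (log2 fold change 0.19, adjusted p = 0.423, limma), while day 1 differed from control by 0.10 (adjusted p = 0.711, limma). With the tubule covariate the difference of day 5 from day 1 was -0.09 (adjusted p = 0.881, limma) and that of day 1 from control 0.40 (unadjusted p = 0.00113, adjusted p = 0.196, limma), so the order of the MN days turned with that setting.

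Tgfb3 (chr12:86102756-86126301, minus strand), a ligand of the same receptors, was a minor isoform with 3.64 to 5.80% of ligand TPM. The control libraries held 7.88, 8.52, 7.78, 8.94 and 6.53 TPM, the day 1 libraries 6.52, 8.67, 9.09 and 6.82 TPM, and the day 5 libraries 10.1, 9.07, 10.5 and 10.8 TPM. All 4 day 5 libraries were above the highest control, and 3 of them were above the highest day 1 library. On the scaled level used for the test neither comparison overlapped. The day 5 difference from control was 0.37 on the log2 scale (SE 0.11, interval 0.13 to 0.61, unadjusted p = 0.0058, adjusted p = 0.0737, limma). The difference from day 1 was 0.36 (SE 0.12, unadjusted p = 0.00946, adjusted p = 0.154, limma), and it did not pass the test either. Day 1 differed from control by 0.01 (interval -0.23 to 0.25, adjusted p = 0.983, limma). With the tubule marker score as a covariate the adjusted p at day 5 was 0.0434 (log2 fold change 0.38, limma). The same covariate brought the difference between the days to 0.18 (adjusted p = 0.822, limma) and that of day 1 from control to 0.20 (adjusted p = 0.749, limma).

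Tgfb2 (chr1:186354985-186438294, minus strand), which needs the coreceptor Tgfbr3 for efficient binding to Tgfbr2, varied most. Its coefficient of variation was 35.2% in control, 41.5% at day 1 and 35.2% at day 5, against 1.74 to 25.7% for the other 8 genes. Control libraries held 12.8, 8.83, 7.0, 14.6 and 6.83 TPM, day 1 libraries 17.6, 6.94, 8.90 and 11.0 TPM, and day 5 libraries 6.72, 17.0, 13.1 and 11.6 TPM. The 3 groups covered nearly the same range. The day 1 difference was 0.17 on the log2 scale (interval -0.48 to 0.82, adjusted p = 0.862, limma). The day 5 difference was 0.29 with an interval of -0.36 to 0.94 (adjusted p = 0.671, limma), which is wide enough to hold no difference and a change well past the fold used for a call. It was 0.10 without day 5 replicate 2, 0.18 without control replicate 3, 0.19 without control replicate 5 and 0.52 without day 5 replicate 1. The day 1 value was -0.07 without day 1 replicate 1 and 0.35 without day 1 replicate 2.

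**Figure D2:**
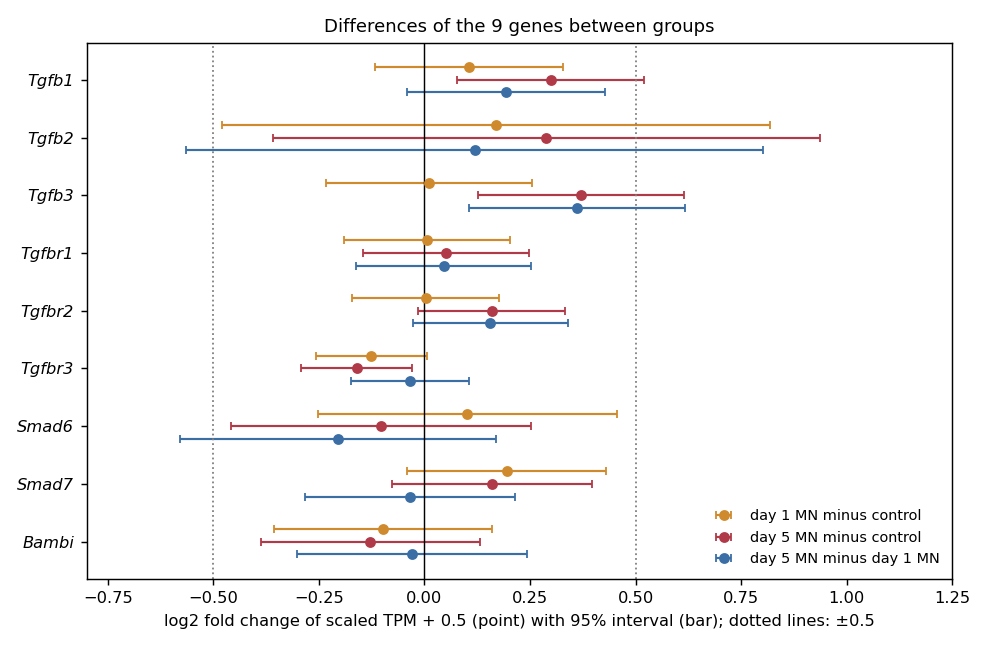
Log2 fold change of the 9 genes (x axis, on log2 of scaled TPM + 0.5) with 95% intervals for 3 comparisons: day 1 MN minus control, day 5 MN minus control and day 5 MN minus day 1 MN. Dotted lines mark the fold needed for a call (0.5). No point passes a dotted line. The intervals of Tgfb1, Tgfb3 and Tgfbr3 at day 5 leave out 0, and that of Tgfb2 is the widest.

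Among the receptors, Tgfbr3 (betaglycan, a coreceptor without kinase activity that presents ligand; chr5:107249402-107437623, minus strand) was the gene with the least scatter. The control libraries held 71.1, 77.0, 78.0, 72.5 and 79.6 TPM, the day 1 libraries 65.4, 67.3, 68.0 and 67.5 TPM, and the day 5 libraries 71.0, 61.4, 65.5 and 66.1 TPM. All 8 MN libraries were below the lowest control in TPM, and day 5 replicate 1 was below it only narrowly. On the scaled log2 level that library overlapped the controls, and the day 1 libraries did not, by the narrow margin of 6.127 against 6.130. Means were 75.6 TPM ± 3.67 in control, 67.0 ± 1.16 at day 1 and 66.0 ± 3.92 at day 5. The log2 fold change was -0.13 at day 1 (SE 0.06, interval -0.26 to 0.01, adjusted p = 0.417, limma) and -0.16 at day 5 (SE 0.06, interval -0.29 to -0.03, unadjusted p = 0.0206, adjusted p = 0.155, limma). Both differences share the control libraries. Without size factors, the day 5 value was -0.20 with an adjusted p of 0.0467 (limma), still short of the fold for a call. The largest fall that the day 5 interval allows is to 0.816 of control.

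Tgfbr2 (chr9:115913361-116004800, minus strand), the ligand-binding type II receptor kinase, was the most abundant receptor, with 61.5 to 72.9% of receptor TPM. Control libraries held 183, 195, 182, 162 and 149 TPM, day 1 libraries 186, 152, 174 and 163 TPM, and day 5 libraries 162, 206, 200.3 and 190.1 TPM. The groups overlapped at both days, with 2 day 5 libraries above every control in TPM. The day 5 difference was 0.16 (interval -0.01 to 0.33, adjusted p = 0.296, limma), and the day 1 difference was 0.00 (adjusted p = 0.992, limma). Tgfbr1 (chr4:47353134-47414931, plus strand), the type I receptor kinase that phosphorylates Smad2 and Smad3, ranged from 13.1 to 18.5 TPM over all 13 libraries, and all MN libraries but day 1 replicate 1 lay within the control range. Its log2 fold change was 0.01 at day 1 and 0.05 at day 5, with intervals of -0.19 to 0.20 and -0.14 to 0.25. As a share of receptor TPM, Tgfbr3 had a median of 28.4% in control, 26.9% at day 1 and 23.8% at day 5, with overlapping ranges.

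Among the feedback genes, Smad6 (chr9:63860341-63929793, minus strand), an inhibitory SMAD that acts mainly on the BMP branch, scattered widely between libraries. Control libraries held 211, 314, 199.9, 228 and 197 TPM, day 1 libraries 231, 329, 219 and 185 TPM, and day 5 libraries 221, 192, 183 and 232 TPM. Its 2 highest values came from control replicate 2 and day 1 replicate 2, and the groups overlapped. The day 5 difference was -0.10 (interval -0.46 to 0.25, adjusted p = 0.799, limma). It became 0.01 without control replicate 2, so its direction rests on that library. Day 1 differed from control by 0.10 (interval -0.25 to 0.46, adjusted p = 0.847, limma), and day 5 from day 1 by -0.20 (interval -0.58 to 0.17, adjusted p = 0.641, limma). Without day 1 replicate 2 these became -0.07 and -0.04, and with the tubule covariate 0.38 and -0.47 (adjusted p = 0.656 and 0.542, limma).

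Smad7 (chr18:75500374-75529006, plus strand), the inhibitory SMAD that competes for the activated type I receptor and recruits ubiquitin ligases to it, had a similar high library. Control libraries held 55.5, 71.5, 66.5, 57.7 and 56.8 TPM, day 1 libraries 64.8, 85.4, 66.4 and 58.1 TPM, and day 5 libraries 70.0, 61.4, 64.1 and 72.5 TPM. Day 1 replicate 2 was the highest of all libraries for Smad7 as for Smad6, and all groups overlapped. The log2 fold change was 0.19 at day 1 (interval -0.04 to 0.43, adjusted p = 0.485, limma) and 0.16 at day 5 (interval -0.08 to 0.40, adjusted p = 0.466, limma). The day 1 value was 0.08 without day 1 replicate 2 and 0.32 with the tubule covariate (adjusted p = 0.584, limma). Bambi (chr18:3507871-3516404, plus strand), a decoy receptor without a kinase domain, held 20.3, 23.7, 19.2, 17.6 and 22.9 TPM in control, 17.2, 20.9, 19.8 and 16.8 TPM at day 1, and 22.2, 17.4, 16.8 and 17.4 TPM at day 5. In TPM day 5 replicate 1 was within the control range and the other 3 were below it. On the scaled log2 level only day 5 replicate 3 was below the lowest control (4.061 against 4.141). The day 1 difference was -0.10 (adjusted p = 0.774, limma), and the day 5 difference was -0.13 (interval -0.39 to 0.13, adjusted p = 0.625, limma).

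**Figure D3:**
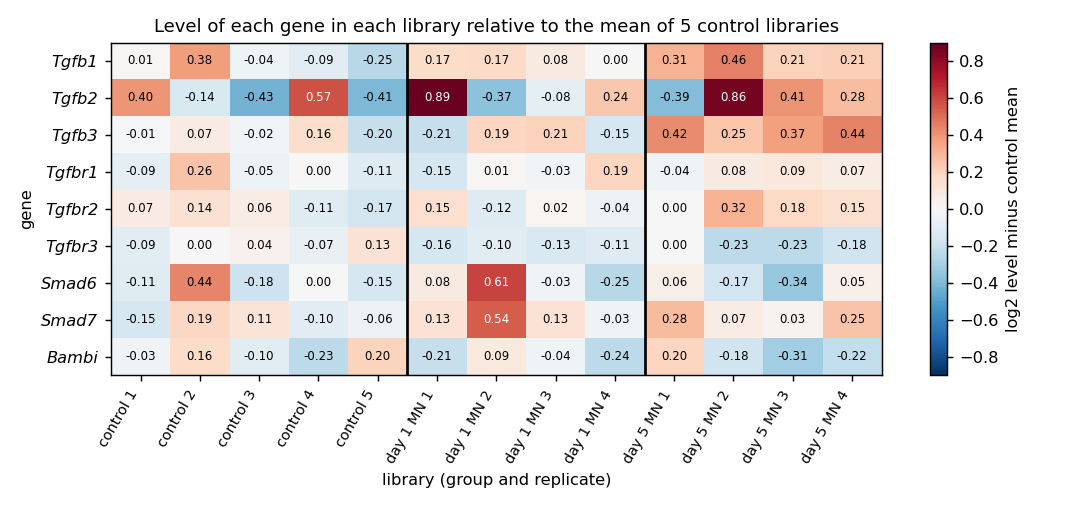
Log2 level of each gene (rows) in each of 13 libraries (columns, by group and replicate) minus the mean of the 5 control libraries, with the value in each cell. Colours run from blue (lower) to red (higher). Tgfb3 is positive in all 4 day 5 libraries (0.25 to 0.44), Smad6 and Smad7 peak together in day 1 replicate 2 (0.61 and 0.54), and the values of Tgfb2 run from -0.43 to 0.89.

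Over the 9 genes, the count of calls was 0 at day 1, where 0.0908% of tested genes were called, 0 at day 5, where 3.21% were, and 0 between the days, where 1.81% were. At an unadjusted p under 0.05 (limma), 0 members passed at day 1, 3 at day 5 (Tgfb1, Tgfb3 and Tgfbr3) and 1 between the days (Tgfb3), against 12.6%, 20.1% and 15.5% of all tested genes. Libraries did not overlap on the scaled level for 1 member at day 1 (Tgfbr3), 1 at day 5 (Tgfb3) and 2 between the days (Tgfb1 and Tgfb3), where the shares over all tested genes were 3.5%, 10.7% and 10.6%. The median log2 fold change of the 9 genes was 0.01 at day 1, 0.16 at day 5 and 0.05 between the days, and over all genes it was at most 0.01 from 0. The median absolute log2 fold change was 0.10, 0.16 and 0.12 for the 9 genes and 0.11, 0.13 and 0.12 for all genes. The 95% interval lay wholly within 0.5 of 0 for 8 members at day 1 and for 6 members in each other comparison. The exception at day 1 was Tgfb2.

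Control replicates 2 and 5 held many of the extreme control values. On the scaled level control replicate 2 was the highest control for 5 of 9 members (Tgfb1, Tgfbr1, Tgfbr2, Smad6 and Smad7), as it was for 24.9% of tested genes. Control replicate 5 was the lowest for 4 (Tgfb1, Tgfb3, Tgfbr1 and Tgfbr2), as it was for 25.6% of tested genes. At day 5 all 8 endothelial markers lay above control (median log2 fold change 0.21, 0 called and 1 with an adjusted p under 0.05 by limma), with sums of 6480 to 6850 TPM, and mesangial markers summed to 1970 to 2170 TPM against 1490 to 2140 TPM in control. At day 1 all 11 tubule markers lay above control (median 0.74, 0 called by limma). Of the 10 podocyte markers 8 lay below control at day 1 (median -0.19) and 6 at day 5 (median -0.21), where limma called Thsd7a lower (-0.79, adjusted p = 0.0112) and Cdkn1c higher (0.72, adjusted p = 0.000708), and Synpo differed by -0.46 (adjusted p = 0.00197, limma), under the fold for a call. The 3 parietal epithelium markers summed to 11.5 to 15.4 TPM in control, to 16.2 TPM or more at day 1 (median 17.3) and to 18.3 to 22.9 TPM at day 5, both above control without overlap, and limma called Cldn1 higher at day 5 (1.08, adjusted p = 0.0036). The part of these shifts in the values of the ligands, of Tgfbr3 and of the pathway genes was not tested beyond the tubule covariate. Leaving out both control replicates, a choice made after seeing the data, gave Tgfb1 at day 5 a log2 fold change of 0.34 (adjusted p = 0.0224, limma) and still no call among the 9.

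The rest of the pathway was read from 6 lists with 75 genes, of which 73 were tested. Limma called 0 of them at day 1, and 7 higher and 0 lower at day 5, or 9.59% of the list genes tested beside 3.21% of all genes. Their median log2 fold change at day 5 was 0.06. The lists were chosen with earlier results of these data known, so setting these shares side by side does not test the pathway. Of the 17 target genes, 5 rose at day 5 and the median log2 fold change was 0.38. Tagln, a smooth muscle actin-binding protein, rose by 1.30 (SE 0.18, adjusted p = 0.00064, limma), from 91.1 to 178 TPM in control to 262 to 447 TPM, without overlap. Col4a1 and Col4a2, the chains of a basement membrane collagen trimer, rose by 0.85 each (adjusted p = 0.0191 and 0.0403, limma), from 187 to 370 TPM to 411 to 612 TPM and from 112 to 234 TPM to 241 to 388 TPM. Timp1, an inhibitor of matrix metalloproteinases, rose by 0.99 (adjusted p = 0.0475, limma) from a control mean of 1.69 TPM to 3.85 TPM, with ranges that met at 2.28 to 2.29 TPM. Junb, a subunit of the AP-1 transcription factor, rose by 0.51 (adjusted p = 0.0175, limma), from 49.6 to 62.6 TPM to 73.5 to 79.4 TPM. The Junb value lay barely past the fold for a call. It was 0.47 to 0.55 with 1 library left out and 0.45 to 0.51 in the other settings. At day 1 Junb differed from control by 0.45 (adjusted p = 0.178, limma).

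The other called genes act on the ligand itself. Ltbp1, which binds latent TGF-beta into the matrix, rose by 0.57 at day 5 (SE 0.12, adjusted p = 0.00983, limma), from 35.4 to 51.2 TPM to 57.0 to 69.8 TPM. Cd109, a membrane protein that binds TGF-beta and limits signalling, rose by 0.70 (SE 0.13, adjusted p = 0.00677, limma), from 2.90 to 3.62 TPM to 4.66 to 6.44 TPM. Cd109 and Tagln were also higher at day 5 than at day 1, by 0.61 and 0.86 (adjusted p = 0.0382 and 0.027, limma), the 2 list genes called between the days, where 1.81% of all genes were. These 2 calls fell to 0 when day 1 replicate 2 or 3 or day 5 replicate 2 or 3 was left out, and to 1 without control replicate 1, 3 or 4, day 1 replicate 1 or 4, or day 5 replicate 4. A further 4 list genes, chosen after their values were seen, passed the adjusted p at day 5 without reaching the fold: Itgav (0.40), Lrrc32 (0.35), Bgn (0.32) and Acvr1b (-0.27). Itgav and Lrrc32 encode proteins that hold or release latent ligand.

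None of the 8 SMAD transducers, 9 other inhibitors or 21 tested genes of the BMP and activin branch was called at day 5. Their median log2 fold changes were -0.06, 0.02 and 0.02. The largest differences in these lists were -0.32 for Smad9, a BMP-branch SMAD (adjusted p = 0.235, limma), -0.23 for Pmepa1, which sequesters receptor-activated SMADs (adjusted p = 0.285, limma), and 0.52 for Fstl3, an activin antagonist (adjusted p = 0.184, limma). The count of 7 called list genes was 3 or 4 when control replicate 4, control replicate 5, day 5 replicate 1 or day 5 replicate 2 was left out, and 2 without both control replicates 2 and 5. Tagln kept its adjusted p under 0.05 at day 5 in all 25 alternative fits, Col4a2 in 11 of 25 and Timp1 in 7 of 24. For Cd109, Ltbp1, Col4a1 and Junb the counts were 24, 23, 21 and 21 of 25. Smooth muscle and renin markers summed to 232 to 410 TPM in control and 273 to 683 TPM at day 5. The renin gene Ren1 had the highest mean of them, 243 TPM in control and 344 TPM at day 5. Ren1, Cnn1 and Myh11 differed by 0.46, 0.37 and 0.21 on the log2 scale at day 5, and limma called none of them. The part of these markers in the Tagln value was not tested.

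**Figure D4:**
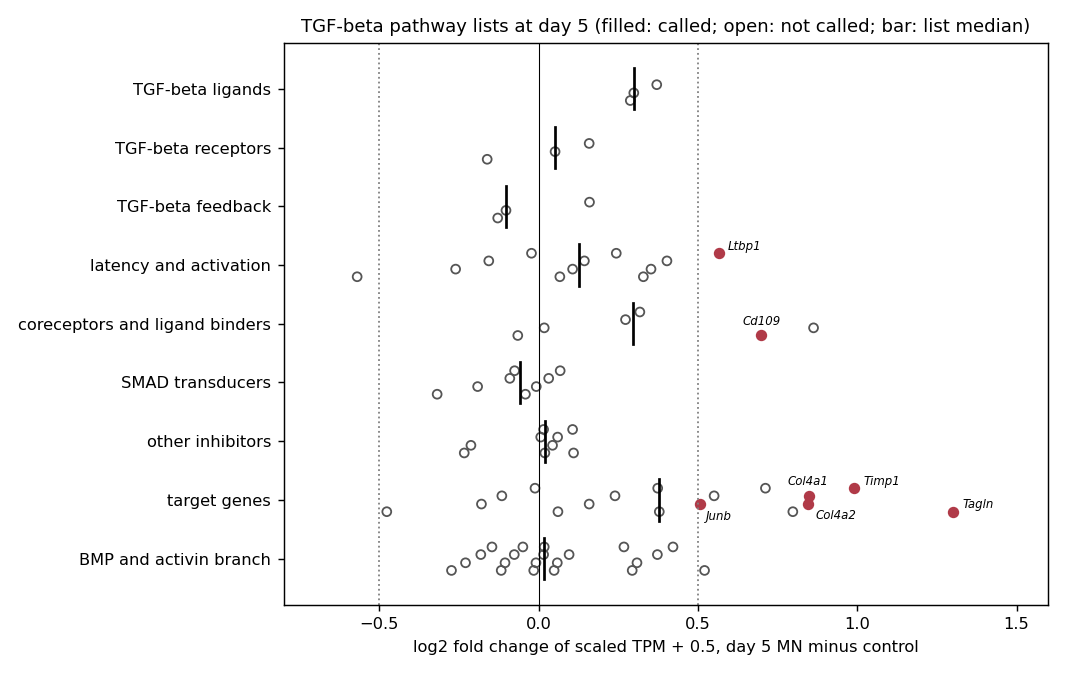
Log2 fold change at day 5 (x axis, day 5 MN minus control, log2 of scaled TPM + 0.5) for the 9 genes in their 3 classes and for 73 tested genes of 6 pathway lists (y axis). Filled points were called and carry their names, open points were not, black bars are list medians and dotted lines mark the fold of 0.5. The called points are Ltbp1, Cd109 and 5 target genes, all to the right of 0.5, and none is among the 9 genes.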

How the data were processed

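RNA from isolated glomeruli of 13 mice was sequenced as paired-end bulk libraries. The authors trimmed the reads and quantified them with Kallisto 0.46.2 against GRCm39 (Ensembl 104), with FastQC 0.11.9 and Trimmomatic 0.39 named in the submitters' processing notes, and deposited TPM values, 1 per gene symbol and library. The authors' own tests used counts, which were not used here, so depth is unknown and no counting interval is given.

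Groups came from the labels. Size factors by the median of ratios came from 15772 genes without a 0, and tests used log2(TPM / factor + 0.5), which understates the change of low genes. The test covered 14322 of 35967 symbols, those at a TPM of 1 or more in 4 libraries or more, with all 9 members among them. All 3 groups entered 1 linear model with a mean-variance trend in limma 3.58.1 (R 4.3.3), with Benjamini-Hochberg adjustment within each comparison. The fit was tested on simulated data. A call needed a log2 fold change beyond 0.5 in either direction at an adjusted p under 0.05. P-values measure the spread between the libraries, taken as 1 per mouse.

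The members, the 6 pathway lists and the marker lists were chosen with earlier results of these data known. Named list genes are all those called and, for a list without calls, the one with the largest day 5 difference. Genes alike were sought for the 3 members with the largest day 5 difference, and 1 of those found is not reported here. Alternatives changed the pseudocount (0.1 and 1), scaling, filter, trend, groups, weights and covariates, or left out 1 library. Promoter windows came from RefSeq (GRCm38.p6), coordinates from GENCODE M39 on GRCm39, and figures from matplotlib 3.10.9.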

Additional observations from a re-analysis of the deposited data

Results flagged for a closer look

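Within the 27 combinations of member and group, 2 held a library far from the others of its group, where chance gives about 1 in 20. Smad6 in control replicate 2 was 314.5 TPM, and the other 4 controls lay between 196.7 and 228.2 TPM, so the gap was 0.732 of the range and passed Dixon's 95% critical value for 5 values. Bambi in day 5 replicate 1 was 22.21 TPM, and the other 3 libraries lay between 16.82 and 17.45 TPM, a gap of 0.882 of the range, which passed that for 4 values.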

How the results depend on the processing

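The count of members called was 0 in all 3 comparisons under every alternative. Of 675 alternative log2 fold changes of members, 630 kept direction and side of the adjusted p of 0.05, 40 changed sign and 5 passed it: Tgfb1 at day 5 without control replicate 2, without control replicates 2 and 5, and with the tubule covariate, Tgfb3 with that covariate, and Tgfbr3 without size factors. Depth is unknown, so precision rests on 4 or 5 libraries a group.

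The largest values that changed sign were those of Tgfb1 between the days (0.19) and Tgfb2 at day 1 (0.17). At day 1, the alternatives gave Tgfb3 -0.033 (no size factors), -0.019 (quantile), -0.0066 (array weights) and -0.034 (control replicates 2 and 5 left out), Tgfbr1 -0.038 (no size factors) and -0.012 (quantile), and Tgfbr2 -0.043 (no size factors), -0.016 (quantile), -0.015 (array weights) and -0.0072 (control replicates 2 and 5 left out), the last setting also giving Tgfb2 -0.012 and Bambi 0.023. Between the days the tubule covariate gave Tgfb1 -0.086, Tgfbr1 -0.056 and Tgfbr3 0.011. With 1 library left out, day 1 ranges were -0.071 to 0.35 for Tgfb2, -0.056 to 0.084 for Tgfb3, -0.055 to 0.070 for Tgfbr1, -0.047 to 0.044 for Tgfbr2 and -0.066 to 0.22 for Smad6. The day 5 range of Smad6 was -0.15 to 0.0068. Between the days the ranges were -0.071 to 0.36 for Tgfb2, -0.0063 to 0.11 for Tgfbr1, -0.11 to 0.082 for Smad7 and -0.14 to 0.034 for Bambi.

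Genes called at day 1 (13) numbered 6 without the filter, 7 without trend, 2 with only the compared groups, 0 with the tubule covariate, 72 without control replicates 2 and 5, and 3 to 218 with 1 library left out, 218 being without control replicate 5, and it stayed within 1.5 times only without day 1 replicate 3, day 5 replicate 3 or day 5 replicate 4. At day 5, 876 passed on adjusted p alone. Between the days (259), 153 were called at TPM of at least 1 in every library, 414 with only the compared groups, 128 with the tubule covariate, 492 without control replicates 2 and 5, and 150 to 437 with 1 library left out (437 without control replicate 5, 164, 150 and 160 without day 5 replicate 1, 2 and 3). Pathway genes called at day 5 (7) numbered 11 on adjusted p alone, 2 without control replicates 2 and 5, and 3 to 8 with 1 library left out. Between the days (2) they numbered 0 without the filter, 1 with only the compared groups, 0 with the tubule covariate and 0 to 3 with 1 left out, and at day 1 0 to 1.

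Replicate numbers did not pair the libraries: deviations of 12 same-numbered pairs correlated at -0.056 to 0.091, and 2 of 12 libraries correlated best with their own number. The replicate block gave 149 genes at day 1, 1 pathway gene at day 5 and 1 between the days, and day 1 values of -0.041 for Tgfb3, -0.023 for Tgfbr1 and -0.039 for Tgfbr2. The pathway fits and the fit without 2 controls were added after seeing the data. The causes of these shifts were not tested.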

Other observations

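The tested genes whose levels followed those of the ligands most closely were taken by the root mean square difference in log2 level over 13 libraries, each gene centred on its control mean, among 14313 genes. Nearest to Tgfb3 were Reep1 (0.0788), Actn1 (0.0824) and Lbr (0.0989), where the deviation of Tgfb3 itself was 0.247. Near to Tgfb1 were Selenon (0.0804) and Fcgrt (0.0875), where that of Tgfb1 was 0.229. Nearest to Tgfb2 were Neurl3 (0.221), Fgr (0.229) and Sox4 (0.234), against 0.480 for Tgfb2. Actn1 and Lbr had adjusted p-values under 0.05 at day 5 (0.0406 and 0.043, limma) with log2 fold changes of 0.31 and 0.30, under the fold for a call. The likeness is a description over shared libraries and was not tested.

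Summed ligand TPM had a median of 158 in control, 168 at day 1 and 189 at day 5, with ranges of 129 to 207, 156 to 179 and 184 to 214. The highest control sum, 207 TPM, lay within the day 5 range, so the groups overlapped.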
